A study of Rattus norvegicus with 9 samples.

Results

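Bulk RNA sequencing of rat cortical neurons was used to compare 3 libraries of cultures that went through oxygen-glucose deprivation (OGD) with Wnt3a plus Rspondin 1 against 3 libraries of untreated control cultures. These are 6 of the 9 libraries of the series. They were picked by the column names and sample titles alone, with no measured value, and all genes of the table were used. All 9 cultures were primary cortical neurons of Sprague Dawley rats at embryonic day 19, and each library was made from 1 µg of total RNA. The treated group was kept under OGD and normoxia and received 2 recombinant proteins for 24 h, Wnt3a (100 ng/ml) and Rspondin 1 (50 ng/ml). The remaining 3 libraries were also kept under OGD and normoxia, without the 2 proteins, and are called OGD alone here. For them 4.5 h without glucose at 1% oxygen are stated. The deposited data call the OGD alone group vehicle, but the sources used here do not say what the vehicle was. They also do not give the time of harvest or the number of animals pooled in a culture. Nor do they give the hours and oxygen level of OGD in the treated group. No group analysed here had Wnt3a plus Rspondin 1 without OGD, so against control the effects of OGD and of the proteins cannot be told apart. A value set against control therefore describes OGD and the proteins together, and the values of OGD alone are given for the Wnt genes and for the medians of the main gene lists. Nothing states that replicates came from separate cultures, so the p-values reflect the spread among these libraries alone, and that spread may be technical.

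Wnt3a is a secreted ligand that binds Frizzled receptors with the co-receptors Lrp5 and Lrp6. Its signal frees beta-catenin from a destruction complex of Axin, APC and GSK3, and beta-catenin then turns on genes with the TCF/LEF factors. Rspondins bind Lgr receptors and take the ligases Rnf43 and Znrf3 off the membrane, where these would otherwise remove Frizzled receptors. OGD deprives cultured neurons of oxygen and glucose together and is a common culture model of stroke. Embryonic cortical cultures hold neurons with some glia and progenitors, and glia generally withstand such deprivation better than neurons.

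The treated libraries lay far from the control libraries. Depth was 20100579, 15605802 and 25048521 counts for control replicates 1 to 3, and 19972580, 17016738 and 16510794 counts for treated replicates 1 to 3. The first principal component of log2 CPM (counts scaled for library size) held 84.1% of the variance and placed the controls between -95.8 and -92.9, the treated libraries between 40.2 and 51.9, and OGD alone between 38.1 and 53.1. Mitochondrially encoded genes held 3.24% to 4.1% of the counts of control libraries and 4.08% to 4.73% of those of treated libraries. Replicates of each group differed by more than sampling noise (chi-square over its degrees of freedom 3.6 to 11.3).

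Of 13693 tested genes, 9941 (72.6%) differed between the treated group and control at an adjusted p under 0.05 (quasi-likelihood test of edgeR, Benjamini-Hochberg). Of these, 5018 (36.6% of the tested genes) were higher and 4923 (36%) were lower in the treated group. At least a 2-fold change was found in 4493 genes (32.8%), 1908 higher (13.9%) and 2585 lower (18.9%). Larger changes were mostly falls, with 1275 genes at least 4-fold lower against 321 higher, and 73 at least 16-fold lower against 18 higher. Libraries of the 2 groups did not overlap for 78.7% of the tested genes, with the treated libraries above in 39.8% and below in 38.9%. Genes at least 2-fold lower held 20.8% to 22% of the summed FPKM (fragments scaled for gene length and library size) in controls and 5.85% to 6.43% in the treated group. Genes at least 2-fold higher went from 6.29% to 6.53% of the sum to 17.1% to 17.7%. The median log2 change over all tested genes was 0.03, or 0.14 when libraries were scaled by their totals alone, and list medians given here are to be read against it. Counts of list members that passed are likewise to be read against the 36.6% higher and 36% lower of all tested genes. OGD alone, set against the same control libraries, differed in 10012 genes (73.1%). Between the treated group and OGD alone, 27 genes (0.197%) passed, 24 higher (0.175%) and 3 lower (0.0219%) in the treated group, and 784 had an unadjusted p under 0.05. Of the 45 gene lists described here, 39 had no member past the threshold against OGD alone.

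**Figure D1:**
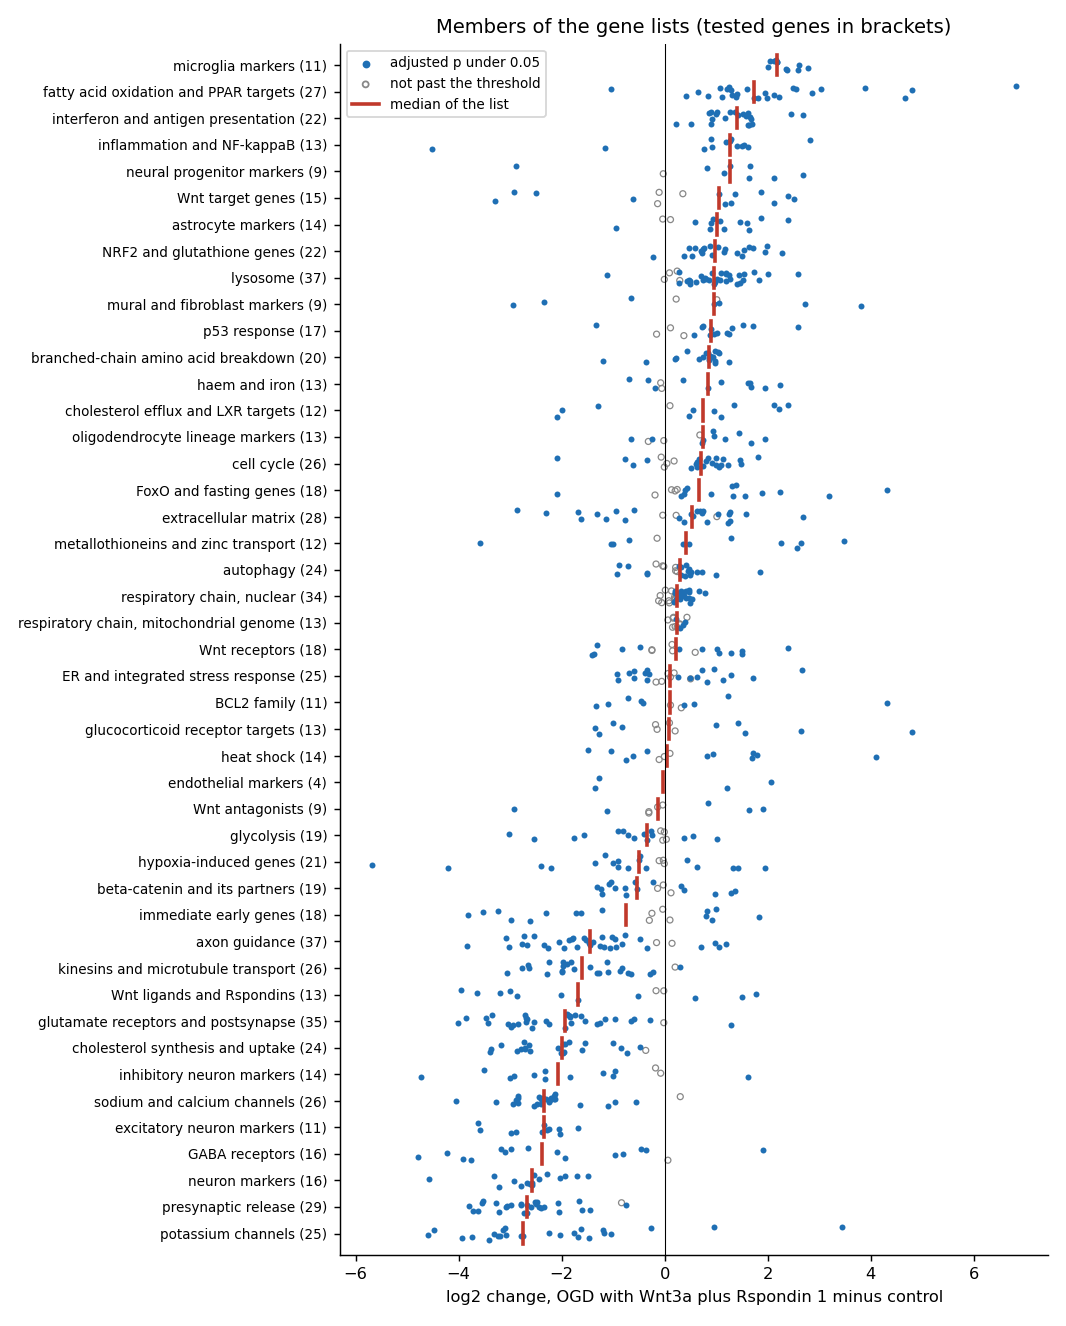
Log2 change of each tested member of 45 gene lists (horizontal axis, treated minus control), with 1 row per list in order of the list's median. Filled points passed the test, open points did not, and the red bar is the list's median. Lists of neuronal excitability lie at the bottom, with medians near -2.57 for neuron markers and -2.67 for presynaptic genes, and microglia markers and fatty acid oxidation genes lie at the top, at 2.17 and 1.74.

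The genes of Wnt signalling moved in both directions against control, and the feedback gene Axin2 stood apart from OGD alone. Axin2 encodes a scaffold of the destruction complex that Wnt signalling itself induces. Its level was 2.48, 2.06 and 2.16 FPKM in control replicates 1 to 3, 2.51, 2.24 and 2.02 FPKM with OGD alone, and 5.18, 5.3 and 5.72 FPKM in the treated group. All 3 treated libraries lay above the other 6. Axin2 rose by 1.16 ± 0.12 on the log2 scale against control (change ± SE, adjusted p = 1.73e-06), while the change with OGD alone was -0.07 ± 0.13 (adjusted p = 0.614). Nkd1, which encodes an inhibitor that binds Dishevelled, had 1.46, 1.63 and 1.2 FPKM in controls and 2.08, 2.05 and 1.71 FPKM in the treated group. Its change of 0.35 ± 0.18 did not pass (adjusted p = 0.0969), with groups apart in FPKM and overlapping in CPM scaled for composition. With OGD alone Nkd1 fell by 0.79 ± 0.19, to 0.74, 0.93 and 0.92 FPKM, so the treated group lay back at or above the control level.

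The promoters of these 2 genes are shown because both differed between the treated group and OGD alone and both hold the letters ATCAAAG, a core of TCF/LEF sites that was chosen after the values were seen. Each sequence is the 250 bases before the transcription start from RefSeq (GRCr8), 5′ to 3′ on the gene's strand, with the match in capitals. Both matches lie on the opposite strand and so read CTTTGAT.
Axin2 (chr10:94398535-94398784, plus strand): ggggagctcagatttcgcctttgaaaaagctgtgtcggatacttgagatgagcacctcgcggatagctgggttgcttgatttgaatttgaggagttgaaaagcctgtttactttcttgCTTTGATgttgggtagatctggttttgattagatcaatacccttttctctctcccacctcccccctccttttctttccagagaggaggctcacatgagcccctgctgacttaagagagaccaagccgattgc
Nkd1 (chr19:34722847-34723096, minus strand): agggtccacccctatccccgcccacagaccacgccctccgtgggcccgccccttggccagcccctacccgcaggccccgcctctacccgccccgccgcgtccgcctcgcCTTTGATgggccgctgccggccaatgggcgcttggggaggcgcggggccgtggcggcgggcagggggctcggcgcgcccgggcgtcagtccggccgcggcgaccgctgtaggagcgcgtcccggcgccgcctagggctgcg
The match starts 132 bases before the start of Axin2 and 141 bases before that of Nkd1. On either strand, ATCAAAG was present in 4 of the 28 promoters found for 24 of the 27 genes that differed from OGD alone (1 promoter each of Axin2, Nkd1, Pdgfc and Glul) and in 3.15% of all 33469 promoters of the table. A match of letters is a description and not a binding site.

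Among 15 measured Wnt target genes, 8 were higher and 4 lower in the treated group (36.6% and 36% over all tested genes). Log2 changes ran from -3.29 to 2.50, with a median of 1.06, and of -0.07 with OGD alone. Each median is the value of 1 gene in a list split between rises and falls. Against OGD alone 3 of the 15 passed, Axin2, Nkd1 and Tnfrsf19, all higher in the treated group. Tnfrsf19, a receptor of the TNF family, had 10.6, 13.5 and 13.4 FPKM in controls and 72.1, 67.7 and 74 FPKM in the treated group, and rose by 2.50 ± 0.08. The groups did not overlap, and OGD alone lay between them at 53.5, 45.1 and 49.2 FPKM. Rnf43, the ligase that removes Frizzled receptors, rose by 2.40 ± 0.19 both in the treated group and with OGD alone, from a mean of 0.537 FPKM to 3.08 and 3.03 FPKM. The stem cell factor gene Sox9 (1.86 ± 0.11) and the adhesion receptor gene Cd44 (1.28 ± 0.09) also rose in the treated group, and with OGD alone they changed by 1.79 and 1.50. Lgr5, a receptor of Rspondins, rose by 1.06 ± 0.23, from 0.37, 0.57 and 0.57 FPKM to 1.17, 0.9 and 1.34 FPKM. With OGD alone it had 1.07, 0.88 and 1.05 FPKM, a rise by 0.90 ± 0.24, and the difference between the 2 groups with OGD did not pass (0.17 ± 0.22, adjusted p = 0.976). Lef1, a TCF/LEF factor gene, had 7 counts in each control library and 15, 19 and 18 counts in the treated libraries. It rose by 1.37 ± 0.44 (adjusted p = 0.0129), a call lost without control replicate 3 (adjusted p = 0.0581), and with OGD alone its change was 0.55 ± 0.48 (adjusted p = 0.317). Of the targets that fell, Nkd2, a relative of Nkd1, had the lowest value. It went from 12.6, 11.7 and 11.9 FPKM to 1.08, 1.39 and 1.52 FPKM, a fall by 3.29 ± 0.16, and OGD alone lay beside the treated group at a mean of 1.07 FPKM.

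**Figure D2:**
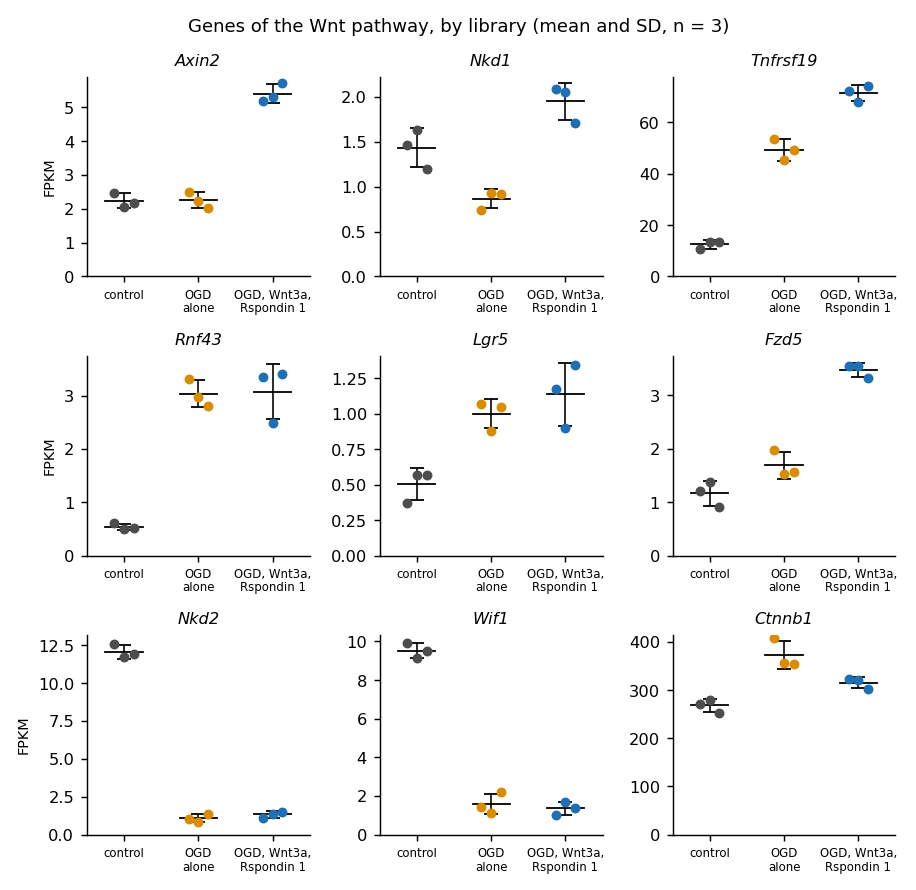
FPKM of 9 Wnt pathway genes (vertical axes, each from 0) in the 3 control, 3 OGD alone and 3 treated libraries, with points for libraries and bars for mean and SD. Axin2 separates the treated group (5.4 FPKM) from both control (2.23) and OGD alone (2.26), whereas Rnf43 has means of 3.03 and 3.08 FPKM in the 2 groups with OGD.

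The culture's own ligand genes mostly fell. Of 13 measured ligand and Rspondin genes, 8 were lower and 3 higher (median log2 change -1.68, and -1.59 with OGD alone), and none passed against OGD alone. Rspo1, the rat gene of the protein that was added, had 33, 20 and 35 counts in controls and 2, 1 and 2 counts in the treated group, 15.5-fold lower with a 95% interval of 6.4 to 48.9 that covers counting error only. It had 0 counts in all 3 libraries of OGD alone, also below every control library. Rspo2 fell by 3.01 ± 0.31, from a mean of 3.75 to 0.513 FPKM, and Wnt4 by 1.68 ± 0.17, from 3.4 to 1.2 FPKM. Going the other way, Wnt5b rose by 1.76 ± 0.21, from 0.56, 0.6 and 0.95 FPKM to 2.57, 2.88 and 2.51 FPKM, and Wls, the carrier that brings Wnt proteins to the cell surface, rose by 1.50 ± 0.08. The changes with OGD alone were -2.77 for Rspo2, -1.59 for Wnt4, 1.74 for Wnt5b and 1.42 for Wls. Wnt3a itself had a single read, in a control library.

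Of 18 measured receptor genes, 8 were higher and 5 lower (median 0.21), shares near the 36.6% and 36% of all tested genes. Fzd5, a Frizzled receptor gene, had 1.2, 1.37 and 0.91 FPKM in controls, 1.98, 1.52 and 1.56 FPKM with OGD alone and 3.54, 3.55 and 3.32 FPKM in the treated group, so the 3 groups did not overlap. It rose by 1.49 ± 0.19 against control. Fzd1 rose by 1.02 ± 0.08 and the co-receptor gene Ryk by 0.72 ± 0.08, while Fzd9 fell by 1.32 ± 0.16, and with OGD alone these 3 changed by 0.98, 0.64 and -1.18. Among 9 secreted and membrane antagonists, 3 were higher and 2 lower, shares no larger than the 36.6% and 36% of all tested genes. Sfrp2, which binds Wnt proteins outside the cell, rose by 1.91 ± 0.08, from 8.79, 10.3 and 9.63 FPKM to 40.3, 38.8 and 37.1 FPKM, and Kremen1, a partner of Dickkopf proteins, rose by 1.64 ± 0.11. Wif1, another Wnt-binding inhibitor, fell by 2.93 ± 0.21, from 9.9, 9.15 and 9.51 FPKM to 1, 1.68 and 1.38 FPKM. OGD alone gave 1.55 for Sfrp2, 1.53 for Kremen1 and -2.69 for Wif1.

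Beta-catenin mRNA was close to control. Ctnnb1 had 272, 280 and 253 FPKM in controls and 323, 320 and 303 FPKM in the treated group, a change of 0.12 ± 0.08 that did not pass (adjusted p = 0.181) but did with library totals (0.23, adjusted p = 0.0125). With OGD alone it rose by 0.39 ± 0.08. Of 19 measured genes of beta-catenin and its partners, 11 were lower and 5 higher (median -0.53). Both GSK3 genes, whose kinases mark beta-catenin for destruction, fell, Gsk3a by 1.22 ± 0.08 from a mean of 171 to 79.1 FPKM and Gsk3b by 1.05 ± 0.09 from 67.8 to 35.6 FPKM. Btrc, a ubiquitin ligase subunit that recognises marked beta-catenin, fell by 1.09 ± 0.09, and Ctnnbip1, an inhibitor of beta-catenin, fell by 1.24 ± 0.09. With OGD alone these 4 genes changed by -1.18, -1.02, -1.15 and -1.34.

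The 27 genes that differed between the treated group and OGD alone fell into 5 places relative to control. For 11 of them the treated group lay farther from control than OGD alone did, in the same direction. Hspb1, a small heat shock protein gene, is in this class, with 5.72, 4.81 and 6.9 FPKM in controls, 53.1, 54.9 and 48.5 FPKM with OGD alone and 116, 116 and 94.1 FPKM in the treated group. It rose by 4.10 ± 0.14 against control. Fam107a, an actin-associated gene induced by stress, had 2.26, 2.65 and 2.65 FPKM in controls, 8.26, 11.1 and 9.17 FPKM with OGD alone and 40.6, 39.4 and 37.8 FPKM in the treated group, and rose by 3.86 ± 0.12. In both genes no library of any group overlapped another group. The growth factor gene Pdgfc rose by 2.57 ± 0.14 against control (1.35 with OGD alone) and Gja1, the astrocyte gap junction gene connexin 43, by 2.40 ± 0.07 (2.03 with OGD alone). Foxo1, Pamr1, Laptm4a, Ptar1, Tnfrsf19 and Fzd5 complete the rises of this class, by 1.49 to 2.50. Glul, glutamine synthetase, was its only fall, from 472, 466 and 461 FPKM to 265, 258 and 259 FPKM (-0.95 ± 0.07), with OGD alone between them at 416, 375 and 368 FPKM.

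For 9 genes the treated group differed from control in the same direction as OGD alone but lay nearer to control. Grm3, a metabotropic glutamate receptor gene, had 23.3, 27.4 and 24.7 FPKM in controls, 2.93, 2.46 and 3.28 FPKM with OGD alone and 7.81, 7.12 and 7.98 FPKM in the treated group. It fell by 1.87 ± 0.11 against control, where OGD alone gave -3.20 ± 0.12. Slc24a2, a calcium exchanger gene, changed by -2.26 ± 0.11 in the treated group and by -3.76 ± 0.13 with OGD alone. The beta subunit gene of the sodium pump, Atp1b1, had 575, 546 and 544 FPKM in controls, 164, 138 and 156 FPKM with OGD alone and 229, 219 and 218 FPKM in the treated group, a fall by 1.37 ± 0.08. Id1, an inhibitor of helix-loop-helix factors that BMP signalling induces, was the opposite case. It rose by 1.61 ± 0.09 from 22, 24.9 and 22.3 FPKM to 79.2, 74.3 and 73.6 FPKM, below the 145, 120 and 129 FPKM of OGD alone. Efhd1, also higher than control, did likewise (0.65 ± 0.07 against 1.17 ± 0.07), and Cspg5, Ildr2, St6galnac5 and Vgf were lower than control by 0.28 to 1.45 on the log2 scale.

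Another 4 genes, Ednra, Extl1, Moxd1 and Nkd1, fell with OGD alone and did not differ from control in the treated group at the threshold. Ednra was lower than control by 0.33 ± 0.15 (adjusted p = 0.0585), with a 95% interval of -0.65 to -0.01. In some alternative analyses Ednra passed as lower and Nkd1 as higher than control. Extl1, a glycosyltransferase gene, had 6.61, 6.2 and 6.2 FPKM in controls, 2.95, 2.94 and 3.23 FPKM with OGD alone and 7.05, 5.86 and 5.68 FPKM in the treated group. Its change against control was -0.14 ± 0.10 (adjusted p = 0.253), with a 95% interval of -0.36 to 0.09. Chst2, a sulfotransferase gene, joined Axin2 in differing from control only in the treated group at the threshold, by 0.50 ± 0.09 against -0.17 ± 0.09 with OGD alone. Rcan2, a regulator of calcineurin, was lower than control with OGD alone (-0.22 ± 0.08) and higher in the treated group (0.45 ± 0.08). Of the 27 calls against OGD alone, 10 held in all 18 alternative analyses: Axin2, Extl1, Fam107a, Glul, Grm3, Hspb1, Id1, Pdgfc, Rcan2 and Slc24a2. The calls of Nkd1 and Ednra were lost in 8 of the 18, and those of Fzd5, Gja1, Foxo1, Cspg5 and St6galnac5 in 10.

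**Figure D3:**
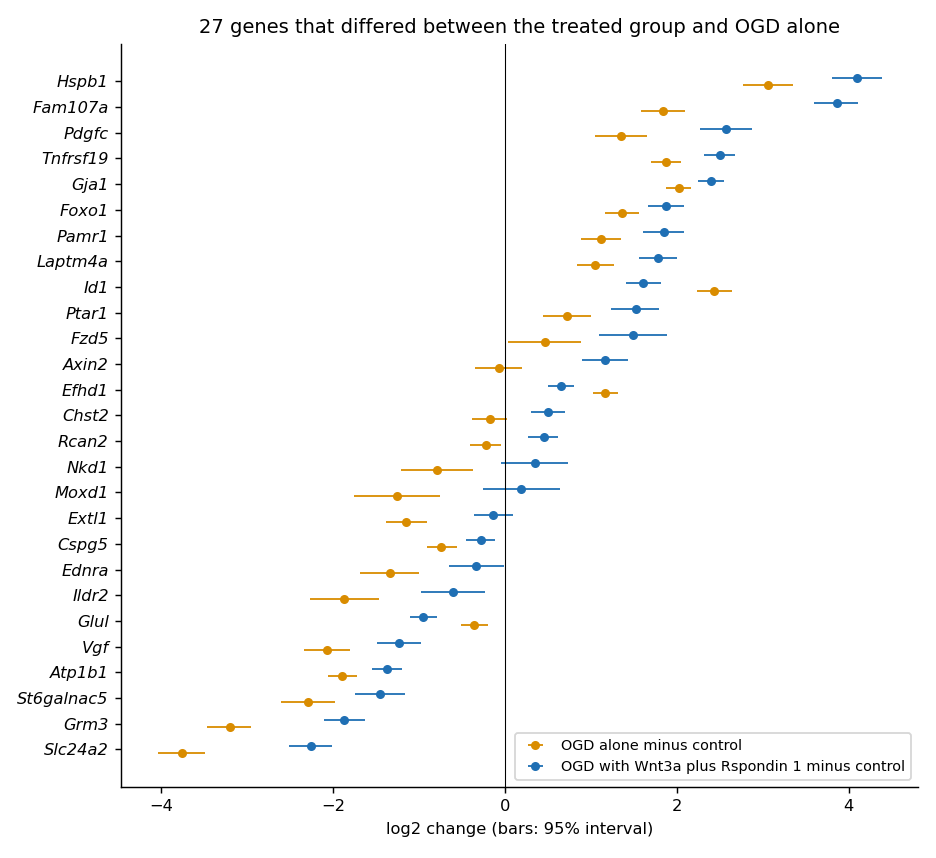
Log2 change against control (horizontal axis, bars are 95% intervals) of the 27 genes that differed between the 2 groups with OGD, for OGD alone (orange) and for the treated group (blue). Both colours share the control libraries. Axin2 and Chst2 lie at or near 0 with OGD alone and above it in the treated group. In the treated group the intervals of Nkd1, Moxd1 and Extl1 include 0, and that of Ednra (-0.65 to -0.01) lies just below it.

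The largest rises against control were in genes of fuel use, stress and cell death. Pdk4, the kinase that shuts pyruvate out of the mitochondrion, had 2.06, 1.55 and 1.55 FPKM in controls and 42, 49.2 and 63.6 FPKM in the treated group, 27.8-fold higher (4.80 ± 0.18). Angptl4, a secreted inhibitor of lipoprotein lipase, went from 7.77, 6.21 and 10.1 FPKM to 184, 236 and 243 FPKM (4.66 ± 0.17), and Bmf, a BH3-only gene that promotes cell death, from 2.7, 2.71 and 1.9 FPKM to 45.4, 49.5 and 60.2 FPKM (4.32 ± 0.18). All 3 were within 0.36 on the log2 scale of their values with OGD alone. Lgals3, the galectin-3 gene of reactive glia and macrophages, rose by 3.96 ± 0.13, from a mean of 18.3 to 307 FPKM. Mt1 (3.47 ± 0.12), the transcription factor gene Cebpd (3.44 ± 0.14) and the small GTPase gene Gem (3.29 ± 0.19) close this group, with Hspb1 and Fam107a among them.

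The largest falls were in genes of lactate export and of neurons. Slc16a3, a lactate exporter gene, had 10.8, 10.8 and 9.98 FPKM in controls and 0.1, 0.34 and 0.23 FPKM in the treated group, 51.4-fold lower (-5.68 ± 0.24). Slc6a7, the brain proline transporter gene, went from 22.2, 20.7 and 17.8 FPKM to 0.5, 0.75 and 0.71 FPKM (-5.09 ± 0.20), and Thy1, a surface glycoprotein gene of neurons, from 203, 180 and 195 FPKM to 7.73, 8.01 and 10.5 FPKM (-4.57 ± 0.14). Every control library lay above every treated library in these genes, a condition that the rule for naming the largest changes set beforehand. Over all tested genes, 78.7% did not overlap. The potassium channel genes Kcnk4 and Kcnj4 fell by 4.71 and 4.47, the GABA-A receptor gene Gabra5 by 4.23, the nicotinic receptor modulator gene Lynx1 by 4.36, the receptor genes Gpr6 and Mas1 by 4.30 and 4.23, and Col26a1 by 4.43.

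**Figure D4:**
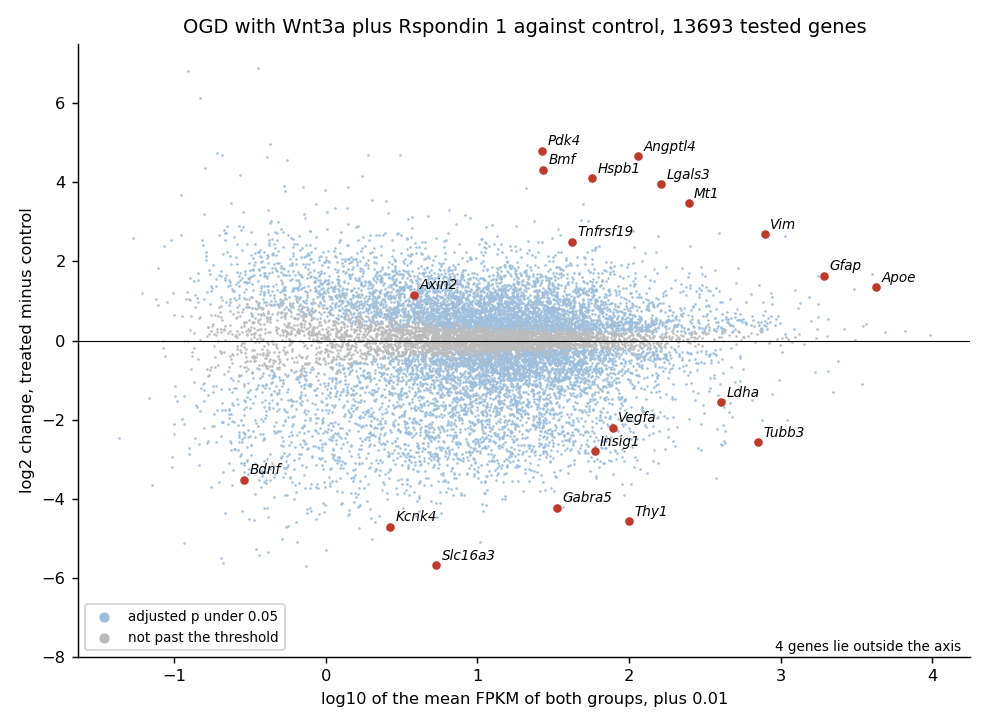
Log2 change of 13693 tested genes (vertical axis, treated minus control) against the log10 of the mean FPKM of both groups plus 0.01 (horizontal axis), with named genes in red and 4 genes beyond the axis limits. Points at least 4-fold lower are denser than points at least 4-fold higher (1275 against 321), and abundant genes such as Gfap and Apoe are among the rises.

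Markers of neurons were lower and most markers of glia higher. All 16 neuron markers were lower in the treated group (median log2 change -2.57; 36% of all tested genes were lower), and their summed level went from 5125 to 5439 FPKM in controls to 929 to 1206 FPKM. The median with OGD alone was -2.60, and no neuron marker passed against OGD alone. Tubb3, the neuronal beta tubulin gene, had 1316, 1209 and 1090 FPKM in controls and 196, 231 and 230 FPKM in the treated group, and fell by 2.57 ± 0.13. Rbfox3, which encodes the nuclear antigen NeuN, fell by 2.79 ± 0.16, and Map2, a protein of dendrites, by 1.49 ± 0.12 from 265, 266 and 268 FPKM to 115, 109 and 136 FPKM. In RNA from whole cultures, fewer cells of a type and less RNA per cell cannot be told apart. All 11 excitatory neuron markers were lower (-2.34), among them the layer 5 transcription factor genes Fezf2 (-2.88 ± 0.12) and Bcl11b (-2.25 ± 0.11). Slc17a7, the vesicular glutamate transporter gene, went from 167, 162 and 165 FPKM to 9.59, 16.2 and 17.3 FPKM. Of 14 inhibitory neuron markers, 11 were lower and 1 higher (-2.08), with Gad2 at -2.54 ± 0.10, Gad1 at -1.01 ± 0.09 and Npy at -3.01 ± 0.16. The marker that rose, named after its value was seen, was Pvalb (1.62).

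Astrocyte transcripts were abundant already in the control cultures. Gfap, the astrocyte filament gene, had 907, 963 and 839 FPKM in controls and 3153, 3001 and 2796 FPKM in the treated group, and rose by 1.64 ± 0.09 with no overlap (1.89 ± 0.09 with OGD alone). Of 14 measured astrocyte markers, 11 were higher and 1 lower (median 1.00, and 1.11 with OGD alone), and the sum went from 3607 to 3781 FPKM to 7888 to 8097 FPKM. Atp1b2 rose by 1.46 ± 0.07 and S100b by 1.14 ± 0.07, and the marker that fell was Glul. Of 13 oligodendrocyte lineage markers, 8 were higher and 2 lower (0.74), with Gpr17, a receptor of committed precursors, at 1.95 ± 0.13 and Cnp, a myelin enzyme, at 1.68 ± 0.07. Of 9 neural progenitor markers, 7 were higher and 1 lower (1.26). Vim, the filament gene of progenitors and reactive astrocytes, went from 189, 214 and 189 FPKM to 1448, 1433 and 1242 FPKM (2.69 ± 0.11), and Pax6 rose by 2.11 ± 0.11. The progenitor marker that fell, named after its value was seen, was the Notch target Hes5 (-2.88).

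Microglia markers were scarce but higher in the treated group. All 11 measured were higher (median 2.17, and 2.16 with OGD alone; 36.6% of all tested genes were higher). The count filter can be met in any group, so scarce markers could pass it through the groups where they are high. The unanimous direction is limited by this. The markers had a sum of 4.78 to 6.98 FPKM in controls and 28.8 to 32.8 FPKM in the treated group. The complement gene C1qb had 1.19, 1.01 and 0.7 FPKM in controls and 6.29, 7 and 5.59 FPKM in the treated group (2.61 ± 0.23). Trem2, Ptprc, P2ry12 and Tmem119, defining markers named after their counts were seen like the others with few reads, had too few reads to be tested, with at most 14 counts in a library. Of endothelial markers, Cldn5 had 0 reads in all 6 libraries, and Cdh5, Flt1, Tie1 and Emcn had at most 5 counts in a library. Of the 4 endothelial markers tested, 2 were higher and 2 lower. Among the rises, Tek had 5, 3 and 6 counts in controls and 10, 7 and 14 counts in the treated group. Its change of 1.21 ± 0.46 (adjusted p = 0.0312) did not pass in several alternative analyses, DESeq2 among them (adjusted p = 0.0796). Kdr, the VEGF receptor gene, rose by 2.06 ± 0.19, from 30, 33 and 35 counts to 142, 118 and 132 counts, and Ramp2, a receptor modifier gene, fell by 1.27 ± 0.11, from 529, 350 and 588 counts to 218, 190 and 166 counts. Of 9 mural and fibroblast markers, 4 were higher and 3 lower (median 0.95, from -2.95 to 3.81). These shares are near the 36.6% and 36% of all tested genes. Tagln, a contractile gene of mural cells that other cells also express, rose by 2.72 ± 0.12, from 99.4, 106 and 84.9 FPKM to 740, 688 and 624 FPKM, while Rgs5, a marker of pericytes, had 0 reads in controls and at most 2 in a treated library. The labelled cell type thus had its defining markers in control, beside high levels of astrocyte markers.

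**Figure D5:**
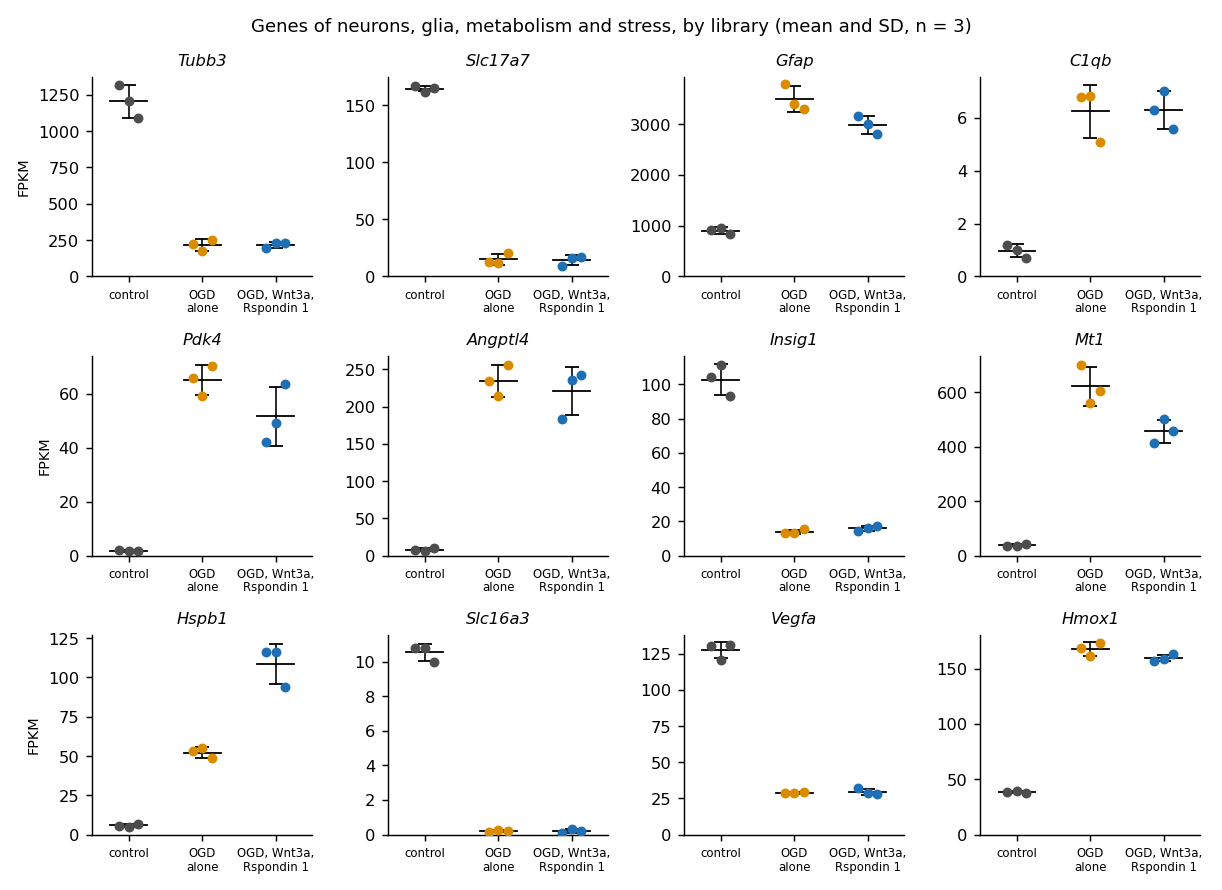
FPKM of 12 genes (vertical axes, each from 0) in the 3 control, 3 OGD alone and 3 treated libraries, with points for libraries and bars for mean and SD. The treated group sits beside OGD alone in most panels, and in Hspb1 it lies above it (109 against 52.2 FPKM).

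Genes of synapses and excitability were lower almost without exception. Of 29 measured genes of presynaptic release, 28 were lower (median log2 change -2.67, and -2.56 with OGD alone), and 27 of these fell at least 2-fold (18.9% of all tested genes). Cplx2, a complexin that clamps vesicle fusion, had 216, 212 and 212 FPKM in controls and 33.4, 32.5 and 39.2 FPKM in the treated group (-2.49 ± 0.08). Rph3a, a Rab3 effector, fell by 3.72 ± 0.14 and the SNARE gene Stx1a by 3.09 ± 0.11. Among 35 glutamate receptor and postsynaptic genes, 33 were lower and 1 higher (-1.93, and -2.14 with OGD alone). The NMDA receptor subunit gene Grin3a fell by 3.47 ± 0.13, from 9.03, 8.58 and 8.38 FPKM to 0.72, 0.95 and 0.87 FPKM. The scaffold genes Dlgap3, Shank3 and Shank2 fell by 2.68, 2.25 and 1.90. The member that rose, named after its value was seen, was Grin2c (1.29). Of 16 GABA receptor genes and partners, 14 were lower and 1 higher (-2.38, and -2.64 with OGD alone). Gabra5 went from 59.3, 63.3 and 68.8 FPKM to 3.33, 3.52 and 4.03 FPKM, and Slc12a5, the chloride exporter that makes GABA inhibitory, fell by 3.77 ± 0.13. The member that rose, named in the same way, was Gabrg1 (1.91).

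Among 26 sodium, calcium and HCN channel genes, 25 were lower (median -2.33, and -2.28 with OGD alone), with the P/Q-type calcium channel gene Cacna1a at -2.84 ± 0.10 and the T-type gene Cacna1g at -2.95 ± 0.10. Of 25 potassium channel genes, 23 were lower and 2 higher (-2.76, and -2.40 with OGD alone). Kcnh3, an ether-a-go-go-like channel gene of the forebrain, went from 32.5, 27.3 and 25.8 FPKM to 1.52, 2.26 and 2.27 FPKM (-3.94 ± 0.15), and Kcnq5, of the M-current, fell by 3.20 ± 0.14. The 2 that rose, named after their values were seen, were Kcnj10 (0.95) and Kcnj16 (3.44), whose inward rectifiers work together in astrocytes. These lists moved beside neuron markers at -2.57 and astrocyte markers at 1.00, and the part of these in the falls was not tested.

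Genes of axons followed the same direction. Of 37 axon guidance genes, 31 were lower and 4 higher (median -1.45, and -1.29 with OGD alone). The semaphorin gene Sema7a fell by 3.02 ± 0.13, from 135, 127 and 129 FPKM to 15.3, 17.6 and 19.1 FPKM, and Slit1, a repellent for growing axons, by 2.05 ± 0.09. The receptor gene Unc5a fell by 2.67 ± 0.13. The 4 that rose, named after their values were seen, were Plxnb1 (1.18), Sema5a (1.05), Ntn1 (0.97) and Ephb1 (0.70). Of 26 genes of kinesins and microtubules, 24 were lower and 1 higher (-1.61, and -1.63 with OGD alone). Stmn3, a microtubule regulator of neurons, went from 689, 702 and 709 FPKM to 106, 129 and 128 FPKM (-2.64 ± 0.12), and the light chain gene Klc2 fell by 1.97 ± 0.08. The rise was Kif5b (0.29), the kinesin heavy chain gene made in most cell types, named after its value was seen.

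Genes that burn fat were higher. Of 27 measured genes of fatty acid oxidation and PPAR targets, 26 were higher and 1 lower (median log2 change 1.74, and 1.70 with OGD alone; 36.6% of all tested genes were higher), and 23 rose at least 2-fold (13.9%). Acadl, the long-chain acyl-CoA dehydrogenase gene, had 42, 42.4 and 43 FPKM in controls and 204, 213 and 218 FPKM in the treated group (2.21 ± 0.07). The thioesterase gene Acot1 rose by 2.85 ± 0.08 and the mitochondrial carrier gene Ucp2 by 2.48 ± 0.09. The member that fell, named after its value was seen, was the fatty acid binding protein gene Fabp3 (-1.05). Breakdown of branched-chain amino acids moved less, with 18 of 20 genes higher and 2 lower (0.85) and 3 at least 2-fold higher. Mcee rose by 1.24 ± 0.11 and Hibadh by 1.06 ± 0.09, while Bcat1, the cytosolic aminotransferase that starts the pathway in neurons, fell by 1.19 ± 0.07, from 477, 449 and 466 FPKM to 211, 228 and 223 FPKM. Astrocyte markers rose beside these lists (11 of 14, median 1.00), and their part was not tested.

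Genes of glycolysis were mixed, with 12 lower, 3 higher and 4 not past the threshold of 19 (median -0.34). Hk2, a hexokinase gene, fell by 3.03 ± 0.15, from 15.5, 14 and 12.1 FPKM to 2.29, 1.48 and 1.67 FPKM. Ldha, which makes lactate, went from 614, 594 and 572 FPKM to 211, 229 and 208 FPKM (-1.56 ± 0.07), Pfkl fell by 1.76 ± 0.09, and Eno2, the enolase of neurons, by 2.53 ± 0.14. Of 21 genes induced by hypoxia, 13 were lower and 5 higher (-0.51). Vegfa, the vascular growth factor gene, had 130, 121 and 131 FPKM in controls and 32, 28.7 and 28.3 FPKM in the treated group, and fell by 2.21 ± 0.08. Hmox1 (1.94 ± 0.07), which degrades haem, and Epas1 (1.32 ± 0.08), the gene of HIF-2 alpha, rose. Slc2a1, the glucose transporter GLUT1, had 54.7, 49.9 and 48.7 FPKM in controls and 61.8, 51.7 and 48.4 FPKM in the treated group, overlapping groups with a change of -0.03 ± 0.11 (adjusted p = 0.836).

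Respiratory chain genes shifted little. Of 34 nuclear genes, 22 were higher and none lower at the threshold (median 0.24), none changed 2-fold, and 18 had a 95% interval wholly within 0.5 on the log2 scale (21% of all tested genes). Sdhc, a subunit of complex II, rose by 0.67 ± 0.07, from 163, 167 and 160 FPKM to 283, 286 and 267 FPKM. Atp5f1a, of the ATP synthase, rose by 0.48 ± 0.07. Of the 13 mRNAs of the mitochondrial genome, 4 were higher (0.24), a count that became 1 without treated replicate 2 and 9 without OGD alone replicate 1. Mt-atp6 rose by 0.36 ± 0.12 (adjusted p = 0.014), a call lost without treated replicate 2 (adjusted p = 0.0529), and Mt-nd3 by 0.39 ± 0.10 (adjusted p = 0.00266).

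Genes of cholesterol synthesis and uptake were lower in 23 of 24 cases (median -1.99), 20 of them at least 2-fold (36% and 18.9% of all tested genes). Insig1, the sterol sensor that holds SREBP in the endoplasmic reticulum and is itself an SREBP target, had 104, 111 and 92.9 FPKM in controls and 14.5, 15.9 and 17.3 FPKM in the treated group, and fell by 2.80 ± 0.10. The groups did not overlap. Fdft1, which encodes squalene synthase, fell by 2.08 ± 0.07. With OGD alone the list's median was -2.07. Genes of efflux moved the other way, with 8 of 12 higher and 3 lower (0.75). The exporter gene Abca1 rose by 2.12 ± 0.09, from 16.7, 18.9 and 17.8 FPKM to 89.8, 72.6 and 87.5 FPKM, and Apoe, which carries cholesterol between cells, by 1.35 ± 0.10, from 2298, 2323 and 2253 FPKM to 6401, 6652 and 5828 FPKM. Neuron and astrocyte markers moved beside both lists (medians -2.57 and 1.00), and their part was not tested.

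The Insig1 promoter is shown as an example of the list, because SREBP acts together with NF-Y, a factor that binds CCAAT boxes. It is given as above, with its single CCAAT, on the opposite strand (ATTGG), in capitals.
Insig1 (chr4:8057770-8058019, minus strand): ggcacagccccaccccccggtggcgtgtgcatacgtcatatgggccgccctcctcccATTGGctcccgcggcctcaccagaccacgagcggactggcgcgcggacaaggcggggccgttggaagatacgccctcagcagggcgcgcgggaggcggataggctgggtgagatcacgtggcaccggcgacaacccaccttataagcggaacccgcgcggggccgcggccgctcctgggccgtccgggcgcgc
The box starts 193 bases before the start. On either strand, CCAAT was present in 14 of the 16 promoters found for the list and in 34% of all promoters, and CACCCCA, 7 letters of a sterol regulatory element, in 2 of 16 and in 5.9% of all.

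Antioxidant genes were higher. Of 22 genes of the NRF2 response and glutathione, 21 were higher and 1 lower (median log2 change 0.98, and 1.01 with OGD alone). Rises of at least 2-fold were found in 11 of them, against 13.9% of all tested genes. Nqo1, a quinone reductase and a standard NRF2 target, had 25.6, 28.6 and 27.6 FPKM in controls and 115, 125 and 107 FPKM in the treated group (1.98 ± 0.09). Cat, catalase, rose by 1.14 ± 0.06 and the glutathione transferase gene Gsta4 by 1.72 ± 0.09. The member that fell was Gsr (-0.23), glutathione reductase, named after its value was seen. Iron storage rose with them. Fth1, the ferritin heavy chain gene, went from 1789, 1819 and 1795 FPKM to 6190, 6643 and 5777 FPKM (1.68 ± 0.08), Ftl1 rose by 1.10 ± 0.07, and Tf, transferrin, by 1.62 ± 0.08. Of 13 measured genes of haem and iron, 8 were higher and 3 lower (0.83; 36.6% and 36% of all tested genes).

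Metallothioneins, small proteins that bind zinc and copper, were far above control. Mt1 had 35.7, 35.9 and 43 FPKM in controls, 701, 561 and 603 FPKM with OGD alone and 415, 500 and 456 FPKM in the treated group, and rose by 3.47 ± 0.12 against control. Mt2A had 258, 269 and 295 FPKM in controls and 1753, 2004 and 1807 FPKM in the treated group, a rise by 2.65 ± 0.12 where OGD alone gave 3.05 ± 0.12. Treated libraries of Mt1 lay below all 3 libraries of OGD alone, but that difference did not pass (-0.46 ± 0.10, adjusted p = 0.125). Over the 12 measured genes of metallothioneins and zinc transport, 7 were higher and 4 lower (median 0.42; 36.6% and 36% of all tested genes). The falls were led by Slc30a3, the carrier that loads zinc into synaptic vesicles (-3.59 ± 0.19).

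The 2 promoters are shown for their repeats of TGCNCNC, the core of the metal response element bound by the zinc sensor MTF-1. They are given as above, with every match in capitals. Mt1 holds 7 matches (5 forward, 2 on the opposite strand) and Mt2A 5 (1 forward, 4 opposite).
Mt1 (chr19:10832976-10833225, minus strand): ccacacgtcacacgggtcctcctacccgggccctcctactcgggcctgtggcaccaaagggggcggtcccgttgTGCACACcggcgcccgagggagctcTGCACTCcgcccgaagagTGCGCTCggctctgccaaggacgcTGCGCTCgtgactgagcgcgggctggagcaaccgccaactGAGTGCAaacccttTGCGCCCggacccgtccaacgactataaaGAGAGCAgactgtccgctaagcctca
Mt2A (chr19:10838709-10838958, minus strand): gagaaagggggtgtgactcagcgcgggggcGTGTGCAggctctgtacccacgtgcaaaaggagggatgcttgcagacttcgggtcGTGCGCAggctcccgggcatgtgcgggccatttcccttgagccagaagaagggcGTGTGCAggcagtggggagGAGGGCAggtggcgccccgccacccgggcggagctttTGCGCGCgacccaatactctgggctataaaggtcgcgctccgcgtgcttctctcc
At least 1 match was present in 6 of the 9 promoters found for the list and in 43.4% of all promoters, whereas 5 or more were present in 0.37% of all. Mt3, another gene of the list whose promoter is not shown, also held 5 matches (2 forward, 3 opposite).

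Of 14 heat shock genes, 6 were higher and 5 lower (median 0.05), shares near those of all tested genes (36.6% and 36%). Hspb8 rose by 1.71 ± 0.10 and its partner Bag3 by 1.69 ± 0.09, while Hsph1, a co-chaperone of Hsp70, fell by 1.49 ± 0.07. Among 25 ER and integrated stress genes, 10 were higher and 9 lower (0.11), again near the shares of all tested genes. Atf3 rose by 2.66 ± 0.23, from 0.67, 0.68 and 0.49 FPKM to 4.3, 4.39 and 3.73 FPKM, and the serine synthesis genes Psat1 and Phgdh rose by 1.71 and 1.29. Ddit3, the death-promoting factor CHOP, fell by 0.93 ± 0.12, from 25.6, 25.3 and 27 FPKM to 17, 12.5 and 15.2 FPKM.

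Of 18 measured FoxO and fasting genes, 13 were higher and 1 lower (median 0.66; 36.6% and 36% of all tested genes). Fbxo32, the ligase atrogin-1, went from 1.44, 1.65 and 1.52 FPKM to 12.4, 13.4 and 19.1 FPKM (3.18 ± 0.18), Foxo4 rose by 2.23 ± 0.10, and Foxo1, given above, by 1.88 ± 0.09. Of 17 genes of the p53 response, 13 were higher and 1 lower (0.89), with Gadd45a at 2.58 ± 0.15, the death receptor gene Fas at 1.71 ± 0.10 and the cell cycle inhibitor gene Cdkn1a at 0.95 ± 0.08. Among 11 BCL2 family genes, 4 were higher and 5 lower (0.11), shares near those of all tested genes (36.6% and 36%). Bak1, a pore-forming killer, rose by 1.22 ± 0.08, while its relative Bok fell by 1.11 ± 0.09 and Bid by 0.72 ± 0.11. Of 13 glucocorticoid receptor targets, 5 were higher and 4 lower (0.09), again near the shares of all tested genes. Klf15 was at 1.55 ± 0.10 and Ddit4, an inhibitor of mTOR, at -1.36 ± 0.10.

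Lysosome genes were higher in 32 of 37 cases and lower in 1 (median 0.96, and 0.98 with OGD alone; 36.6% and 36% of all tested genes). Cd63, a membrane protein of late endosomes, had 209, 222 and 225 FPKM in controls and 815, 879 and 797 FPKM in the treated group (1.83 ± 0.07), Grn, progranulin, rose by 1.51 ± 0.08, and the protease gene Ctsl by 1.19 ± 0.07. The fall, named after its value was seen, was Ids (-1.12). Of 24 autophagy genes, 13 were higher and 5 lower (0.30; 36.6% and 36% of all tested genes). Tfeb, the master regulator of lysosome genes, rose by 1.84 ± 0.15, from 1.56, 2.26 and 1.93 FPKM to 7.35, 7.43 and 7.17 FPKM. Atg16l1 was at -0.93 ± 0.08.

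Of 18 measured immediate early genes, 9 were lower and 5 higher (median -0.76, and -0.59 with OGD alone; 36% and 36.6% of all tested genes). Fos rose by 1.83 ± 0.11, from 5.07, 6.21 and 5.6 FPKM to 19.9, 21.9 and 22.8 FPKM. Arc, made at active synapses, fell by 2.62 ± 0.19, from 3.23, 3.48 and 3.32 FPKM to 0.71, 0.62 and 0.4 FPKM, and Egr3 and Nr4a3 fell by 2.99 and 2.31. Bdnf, the neurotrophin gene, had 40, 26 and 63 counts in controls and 1, 4 and 5 counts in the treated group (-3.52 ± 0.46). With OGD alone its change was -2.49.

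Genes of immune signalling were higher. All 22 measured genes of interferon response and antigen presentation were higher (median 1.39, and 1.26 with OGD alone; 36.6% of all tested genes were higher). Ifitm3, an antiviral membrane protein gene, had 4.97, 3.02 and 4.33 FPKM in controls and 28, 23.2 and 22 FPKM in the treated group (2.44 ± 0.17), and B2m, the light chain of MHC class I, rose by 1.16 ± 0.07. Of 24 genes of inflammation and NF-kappaB, 13 could be tested, and 11 were higher and 2 lower (1.26, and 1.33 with OGD alone). Scarce members of both lists could pass the count filter through the groups where they are high. Nfkb2 rose by 1.61 ± 0.10, Nfkbia, which restrains NF-kappaB, by 1.26 ± 0.11, and Vcam1, an adhesion molecule, by 1.41 ± 0.10, while Ptgs2, cyclooxygenase-2, fell by 4.52 ± 0.45 from 0.48, 0.62 and 0.65 FPKM to 0.01, 0.03 and 0.04 FPKM. Cytokine genes such as Il1b, Il6, Tnf and Ccl2 had at most 3 counts in a library of either group. Microglia markers rose beside these lists, from sums of 4.78 to 6.98 FPKM to sums of 28.8 to 32.8 FPKM, and their part was not tested.

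Of 26 cell cycle genes, 18 were higher and 4 lower (median 0.71), against 36.6% and 36% of all tested genes. The mitotic kinase gene Aurkb rose by 1.80 ± 0.08, from 13, 13.1 and 13.5 FPKM to 46.4, 48.8 and 45 FPKM, and the checkpoint kinase gene Bub1b by 1.47 ± 0.16, while Ccne1, cyclin E1, fell by 2.09 ± 0.13. The list's median with OGD alone was 0.36, none of the 26 passed between the 2 groups with OGD, and Aurkb was at 59.9, 66 and 58.1 FPKM with OGD alone, above the treated libraries (-0.41 ± 0.08, adjusted p = 0.0625). Of 28 extracellular matrix genes, 16 were higher and 9 lower (0.52; 36.6% and 36% of all tested genes). Timp1, an inhibitor of matrix proteases made by reactive astrocytes, rose by 2.68 ± 0.13, from 7.4, 8.66 and 10.5 FPKM to 57.6, 66 and 60.2 FPKM. Sparc rose by 1.26 ± 0.08, and Col4a2, a collagen of basement membranes, fell by 1.31 ± 0.08.

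The most abundant transcripts were in part the same in both groups. Of the 10 genes with the highest mean FPKM in each group, 6 stood in both lists, Eef1a1 and 5 mitochondrial genes. Tuba1a (4592 to 2301 FPKM), Tubb2b (3087 to 1342 FPKM), Actb (2734 to 2041 FPKM) and an unnamed locus were among the first 10 in control only. Apoe (2291 to 6294 FPKM), Fth1 (1801 to 6203 FPKM), Ckb, the brain creatine kinase (1678 to 4450 FPKM), and Gfap (903 to 2983 FPKM) were among the first 10 in the treated group only. Eef1a1, a translation factor gene, had a change of 0.02 ± 0.08 (adjusted p = 0.871). Tubulins, actins, ferritins, metallothioneins and Eef1a1 have near-identical copies or pseudogenes among which reads can be split, so their values are uncertain to that extent.

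By the KEGG annotation of the deposited tables, the pathways with the highest share of genes at least 2-fold lower were nicotine addiction (25 of 34 tested genes), glutamatergic synapse (65 of 101), olfactory transduction (19 of 30), salivary secretion (36 of 57), circadian entrainment (50 of 82) and insulin secretion (38 of 63). They hold many genes in common, such as channels and receptors of excitable cells. The highest shares of genes at least 2-fold higher were in Staphylococcus aureus infection (13 of 20), complement and coagulation (23 of 36), cytochrome P450 drug metabolism (15 of 26), malaria (12 of 25), cytochrome P450 metabolism of xenobiotics (13 of 28) and fatty acid degradation (16 of 35). These 12 pathways were picked by these shares among 266 with at least 20 tested genes, so the shares are a description. At the other end, 2881 genes (21%) had a 95% interval of their log2 change wholly within 0.5 in either direction.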

How the data were processed

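RNA from 9 libraries was extracted with Trizol and prepared with TruSeq, per the labels' protocols. Per the file headers, the authors deposited gene counts and FPKM values, a unit scaled by gene length and library size. Bowtie 0.12.2, mm8 and mm9 stand in the submitters' processing notes, and the latter are builds of the mouse genome although the deposited identifiers are rat genes. No source used here gives the strand setting, so reads of a gene cannot be separated from those of an overlapping or antisense gene. The authors' own fold changes and p-values were not used.

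Counts were tested with edgeR 4.0.16 (R 4.3.3), with TMM scaling, at least 10 counts in 3 libraries (filterByExpr, total of 15), 1 mean per group over all 9 libraries and 6 residual degrees of freedom. This left 13693 of 22050 genes, and 4718 had no read. Adjusted p-values in the text come from this quasi-likelihood test with Benjamini-Hochberg adjustment over all tested genes. Alternatives used DESeq2 1.42.0, limma 3.58.1 on log2(FPKM + 0.1 or 1), RLE or total scaling, other filters, the compared libraries alone, a replicate block, and each library left out. Intervals cover counting error where they come from counts alone.

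Named genes included the 10 largest rises and falls with at least 5 FPKM and no overlap between treated and control libraries. Others were up to 4 members per list with the smallest adjusted p and every gene past the threshold against OGD alone. The 10 most abundant genes per group and a short fixed set were added. Members and lists were chosen with earlier results of these data known. Promoters came from the RefSeq table (GRCr8). Some genes that this rule names are not reported here.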

Additional observations from a re-analysis of the deposited data

How the results depend on the processing

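Against control, the count of genes past the threshold stayed within 1.5 times its value under all 18 alternatives, from 9109 to 10601 (9341 to 10601 with a library left out). With library totals the split was 5669 higher and 4408 lower, and with the replicate block 10229 genes passed. Of 4186 pairs of a named gene and an alternative, 4153 kept direction and call, 20 lost the call (Tek, Lef1, Mt-nd1, Mt-cyb and Mt-atp6), 13 gained it (Ednra, Nkd1, Mt-co2, Mt-co3 and Ctnnb1) and 0 reversed.

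Against OGD alone the count of 27 (24 higher, 3 lower) moved more. DESeq2 gave 101 (61 higher, 40 lower), the compared libraries alone 15 (12 higher), RLE scaling 5 lower and no filter 7 lower. With a library left out it ran from 12 (without treated replicate 2) to 49 (without OGD alone replicate 1), with 10 to 38 higher and 2 to 11 lower, and it was 13 without OGD alone replicate 2 and 17 without treated replicate 3. The replicate block gave 65 (43 higher, 22 lower). Same-numbered deviations correlated with those of the treated group at 0.067, -0.069 and 0.003 (control) and 0.232, 0.073 and 0.267 (OGD alone). Differently numbered ones ran from -0.076 to 0.073 (control) and from -0.238 to -0.024 (OGD alone). The count of 27 comes from a fit without pairs. Whether same-numbered libraries of the 2 groups with OGD are pairs is not stated and was not settled. Of 486 gene and alternative pairs, 99 lost the call, in 17 genes, and 0 reversed. The cause was not tested. Genes with few counts, such as Lef1 and Rspo1, are limited by depth.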
